A study of Mustela putorius furo with 2 samples.

Results

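Cadherins and protocadherins are membrane proteins whose extracellular domains bind between cells in the presence of calcium. Their RNA was followed across the cell classes of the newborn ferret cortex. Gene names beginning with CDH and a digit, or with PCDH, were taken as the family, and a gene was kept as a member when it held at least 20 UMIs (unique molecular identifiers, each counting 1 captured RNA molecule). The file listed 93 such names, 40 of them with at least 1 UMI and 34 with 20 or more. These 34 members were made up of 17 cadherins and 17 protocadherins. The 6 names with 1 to 19 UMIs were PCDHAC2 (16 UMIs), CDH1 (12), CDH19 (7), CDH17 (6), CDH26 (2) and CDH16 (1), while the least abundant members, PCDHAC1 and CDH3, held 29 and 66 UMIs. The other 53 names all stood after the last name in the file with any UMI and were treated as unmeasured.

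The study profiled single cells of dorsal cortex taken from ferrets (Mustela putorius furo) of wild-type genotype at postnatal day 3, with 1 group of 2 replicates and no treatment. Tissue was dissociated with papain and captured in droplets on the 10x Genomics platform. Its title sets the study's subject as the radial glia that make neurons and glia in a folded cortex. How many pups were pooled in a replicate, and whether the replicates came from separate litters, is not given in the labels.

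Classical cadherins (types I and II) hold cells together through like-to-like binding and connect through beta-catenin and alpha-catenin to the actin cytoskeleton. The radial glial scaffold of the developing cortex is anchored at the ventricle by junctions built on N-cadherin (CDH2). Delta protocadherins bind more weakly and recruit cytoplasmic regulators instead of catenins, and clustered protocadherins give single neurons a surface identity used in self-recognition. In mouse and human cortex the members are known for expression restricted to particular layers, regions and cell types.

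The matrix held 14787 cells whose barcodes carried 1 of 2 suffixes, read here as the libraries and called A (9782 cells, median 3602.5 UMIs per cell, 41836475 UMIs in all) and B (5005 cells, median 3068, 18907140 UMIs). Only 21 barcode sequences occurred in both. Which suffix belongs to which replicate is not stated in the labels. Cells were sorted into 17 classes by marker genes, none of them a cadherin or protocadherin. This placed 8264 cells (55.9%), left 5703 (38.6%) in no class, and set aside 820 (5.55%) that carried markers of 2 lineages. In all, 13 classes had at least 20 cells in each library and entered the tests, from 101 oligodendrocyte precursors to 2791 newborn excitatory neurons. Median depth per cell ran from 2005 UMIs in endothelial cells to 7215 in dividing radial glia. P-values below rest only on how far these 2 libraries disagreed in the class levels, beyond a shift common to all classes. That spread, which may be technical, was estimated over the 13 classes together.

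The class names rest on the markers that gated them. Endothelial cells were gated on 8 markers that include CLDN5, and together these reached 4866 and 5179 CPM (UMIs scaled to a total of 1000000 in each class and library, given for library A and then library B throughout). Newborn excitatory neurons were non-dividing excitatory cells outside the EOMES progenitor gate, with no UMI of the markers in the deep-layer gate. No marker of newborn cells was required, so the name does not establish a stage. Their median depth was 3132 UMIs per cell, against 3883 in deep-layer cells. The deep-layer gate stands on few genes. Its ungated marker SOX5 was at 768 CPM over both libraries in deep-layer cells and 655 CPM in newborn excitatory neurons, LMO3 was at 28.3 and 36.1 CPM, and the upper-layer marker UNC5D was at 1495 and 1491 CPM. Endothelial cells and microglia also held neuronal RNA. The 8 excitatory neuron markers summed to 354 and 339.7 CPM in endothelial cells and 196 and 275 CPM in microglia, against 2422 and 2470.0 CPM in newborn excitatory neurons (1 of the 8 was at 0 in library A of the endothelial cells and 1 in each library of the microglia). How far such RNA enters the levels below was not tested, so the microglial level of a member is given where it bears on a result.

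Summed over all 34 members, the family was most abundant in oligodendrocyte precursors, at 4212 and 3604 CPM, and least abundant in microglia, at 497 and 712 CPM. Endothelial cells had 2382 and 2099.8 CPM and caudal-eminence interneurons 2379 and 1897 CPM. Every other tested class lay between 1083 and 1874 CPM. The classes differed in which subfamily made up that total. Type II cadherins led in endothelial cells, with 1087 and 920.1 CPM, and type I cadherins led in caudal-eminence interneurons, with 1055 and 864 CPM. Type I cadherins also led in dividing HOPX radial glia, with 427 and 356 CPM. Delta-1 protocadherins led in each of the other tested classes. They were highest in oligodendrocyte precursors, with 2163 and 1821 CPM, followed by non-dividing EOMES progenitors, with 1039 and 1012 CPM. Delta-2 protocadherins were highest in oligodendrocyte precursors (554 and 484 CPM) and EGFR and OLIG1 gliogenic progenitors (371 and 309 CPM). Clustered protocadherins reached at most 72.9 CPM in any of the 13 classes.

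**Figure D1:**
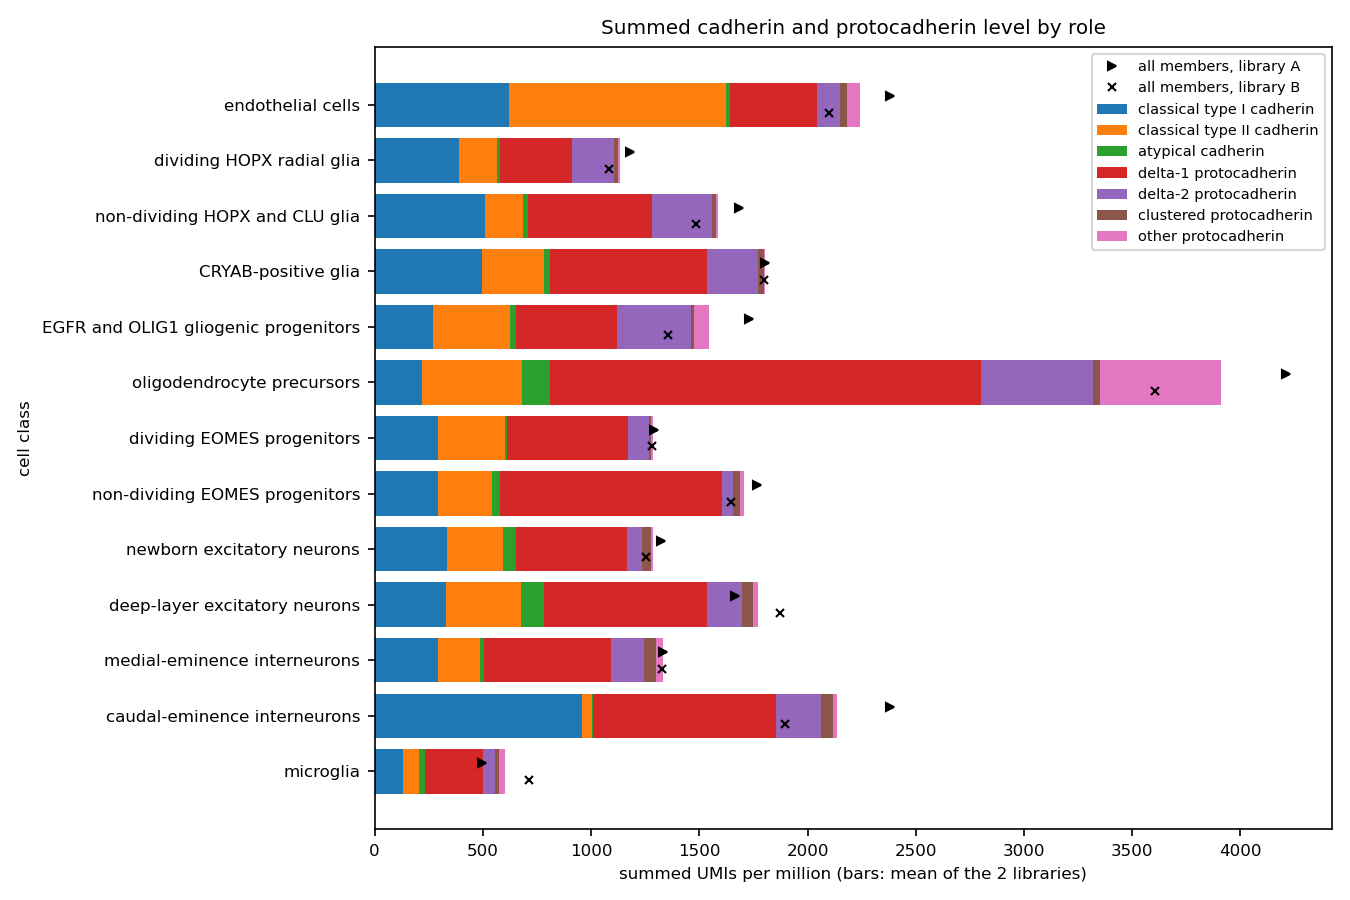
Summed level of the members in each of the 13 tested classes, in CPM; bars are the mean of both libraries stacked by subfamily, and the marks give the total in each library. Oligodendrocyte precursors stand highest in both libraries and microglia lowest.

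Among single members, 9 were highest in oligodendrocyte precursors, 8 in endothelial cells, 4 in caudal-eminence interneurons, 3 in medial-eminence interneurons and 3 in deep-layer excitatory neurons. Non-dividing EOMES progenitors and microglia had 2 each, and newborn excitatory neurons, dividing radial glia and CRYAB-positive glia 1 each. The leading class was the same in both libraries for 23 of the 34. For 21 the lower library value of the leading class lay above the higher value of the next class. CPM counts captured molecules and is not corrected for gene length, so levels are compared between classes and not between genes.

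**Figure D2:**
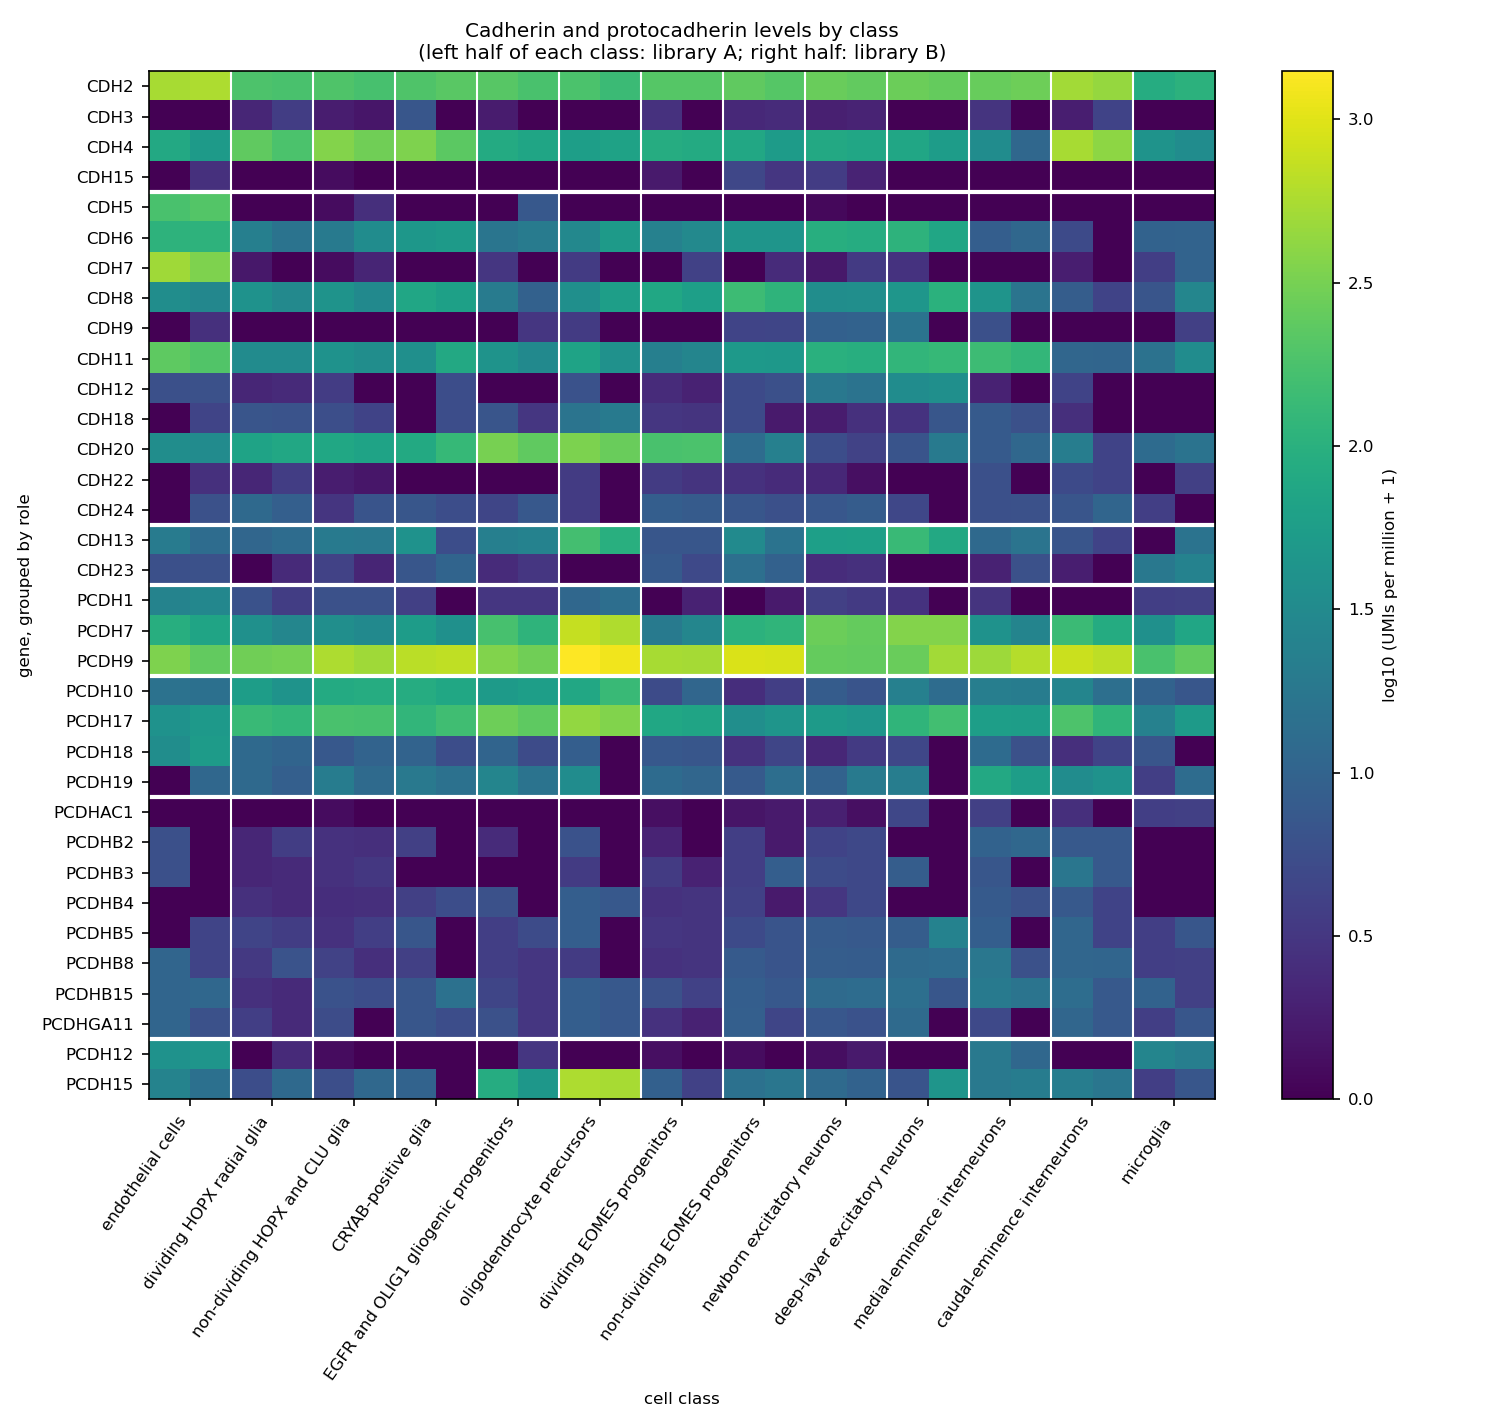
Level of each of the 34 members (rows, grouped by subfamily) in each tested class (columns, with library A on the left and library B on the right of each pair), as log10 of CPM plus 1. CDH5 and CDH7 stand out in endothelial cells, PCDH15 in oligodendrocyte precursors and CDH4 in caudal-eminence interneurons. PCDH9 is seen in every tested class and is highest in oligodendrocyte precursors.

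The type I cadherins were carried by CDH2 and CDH4. CDH2 (N-cadherin) was found in every class. It stood at 538 and 568 CPM in endothelial cells and 514 and 448 CPM in caudal-eminence interneurons, whose ranges did not overlap in these libraries. The remaining neural classes held 140.1 to 284 CPM with much overlap between neighbours, and microglia 86.6 and 105 CPM. CDH4 (R-cadherin) divided the classes more sharply. It was at 540.0 and 413 CPM in caudal-eminence interneurons, then at 370.1 and 289 CPM in non-dividing HOPX and CLU glia, 344 and 226 CPM in CRYAB-positive glia and 240.2 and 181 CPM in dividing HOPX radial glia. The interneurons lay above each glial class in both libraries. Dividing radial glia lay below non-dividing glia, and CRYAB-positive glia overlapped both. Elsewhere CDH4 was at 10.1 to 88.2 CPM, lowest in medial-eminence interneurons. CDH3 (P-cadherin) and CDH15 (M-cadherin, known from muscle) never exceeded 6 CPM in a tested class.

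Within single cells CDH4 and CDH2 were not exclusive. Of the 330 caudal-eminence interneurons with a CDH4 UMI, 63.3% also held CDH2, and of those without one 70.6% did. In non-dividing glia the shares were 58.6% of the 794 cells with CDH4 and 52.5% of the cells without. A cell without a UMI may still carry the RNA, and deeper cells score more of both genes.

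Among the type II cadherins, CDH5 and CDH7 were nearly restricted to the endothelial class when only the tested classes are compared. Over all cells CDH5 held 393 UMIs and CDH7 711. For both genes more of these lay in cells outside the tested classes than in the endothelial class. Which cells those were was not tested. CDH5 (VE-cadherin) forms the junctions between endothelial cells and was not used in the gate. It was at 175 and 203 CPM in endothelial cells, from 36 and 119 UMIs, and had no UMI in 9 of the other 12 tested classes. CDH7 was at 499.7 and 341 CPM in endothelial cells, 2.89 and 8.98 CPM in microglia and 0 to 3.01 CPM in the neural classes. A CDH7 UMI was seen in 156 of 340 cells (45.9%, 95% interval 40.5 to 51.3) of the endothelial class, at a median of 2005 UMIs per cell, and in 3 of 211 cells (1.42%, 95% interval 0.294 to 4.10) of the microglia, at a median of 2136 (Clopper-Pearson intervals, counting error only). With every cell thinned to 1500 UMIs the shares were 37.6% and 1.42%. Over the 13 classes the log2 levels of CDH7 and CDH5 had the highest correlation among the 66 pairs of the 12 members with the highest level in any class (Pearson r = 0.91, n = 13 classes of shared libraries, a description that the endothelial point dominates). Inside the endothelial class, CDH5 was seen in 36.5% of the 156 cells with CDH7 and in 32.1% of the cells without.

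CDH11 and CDH6 were shared by vascular cells and excitatory neurons, and CDH11 by medial-eminence interneurons as well. CDH11 (OB-cadherin) was at 233 and 193 CPM in endothelial cells, 143 and 122 CPM in medial-eminence interneurons, 118 and 127 CPM in deep-layer and 98.2 and 93.7 CPM in newborn excitatory neurons. The first was above the others in both libraries, and the medial-eminence and deep-layer levels overlapped. In caudal-eminence interneurons CDH11 fell to 9.83 and 9.74 CPM, under its level of 14.4 and 32.9 CPM in microglia. CDH6 (K-cadherin) was at 107 and 106 CPM in endothelial cells, 107 and 72.5 CPM in deep-layer and 94.4 and 86.7 CPM in newborn excitatory neurons, with overlap between the vascular and deep-layer values. Among neural classes it was lowest in interneurons of the medial (7.81 and 10.1 CPM) and caudal (4.10 and 0 CPM) eminences.

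CDH8 and CDH20 had their highest levels in different progenitor and precursor classes. CDH8 peaked in non-dividing EOMES progenitors at 145 and 109 CPM, against 73.6 and 59.1 CPM in their dividing counterparts and 34.2 and 34.5 CPM in newborn neurons. Deep-layer neurons came next but disagreed between libraries (44.4 and 103 CPM). CDH20 was at 331 and 267 CPM in oligodendrocyte precursors and 315 and 236 CPM in EGFR and OLIG1 gliogenic progenitors, which overlapped, and at 174 and 178 CPM in dividing EOMES progenitors. HOPX and CRYAB glia held between 65.4 and 129 CPM, and neurons and non-dividing EOMES progenitors between 3.13 and 22.5 CPM.

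The other type II members were scarce. CDH12 was found mostly in excitatory neurons, at 33.3 and 36.3 CPM in deep-layer and 17.0 and 15 CPM in newborn cells. CDH18 was highest in oligodendrocyte precursors at 15.4 and 19.1 CPM, from 6 and 3 UMIs. CDH9 was at 8.22 and 8.71 CPM in newborn excitatory neurons and at 14.8 and 0 CPM in deep-layer neurons, and CDH24 11.0 and 8.09 CPM in dividing radial glia. CDH22 stayed at or under 4.88 CPM in every tested class.

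The atypical cadherins lack the classical catenin-binding tail. CDH13 (T-cadherin, anchored by a lipid) was at 159 and 95.5 CPM in oligodendrocyte precursors and 135 and 78.6 CPM in deep-layer excitatory neurons, and these ranges overlapped. Newborn excitatory neurons had 58.3 and 61.0 CPM, and no other tested class exceeded 38.9 CPM. CDH23, known as the partner of PCDH15 in the tip links of inner ear hair cells, was at 17.3 and 23.9 CPM in microglia and 13.0 and 8.45 CPM in non-dividing EOMES progenitors. CDH23 and PCDH15 did not peak together. CDH23 had no UMI among the oligodendrocyte precursors, in which PCDH15 was highest.

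**Figure D3:**
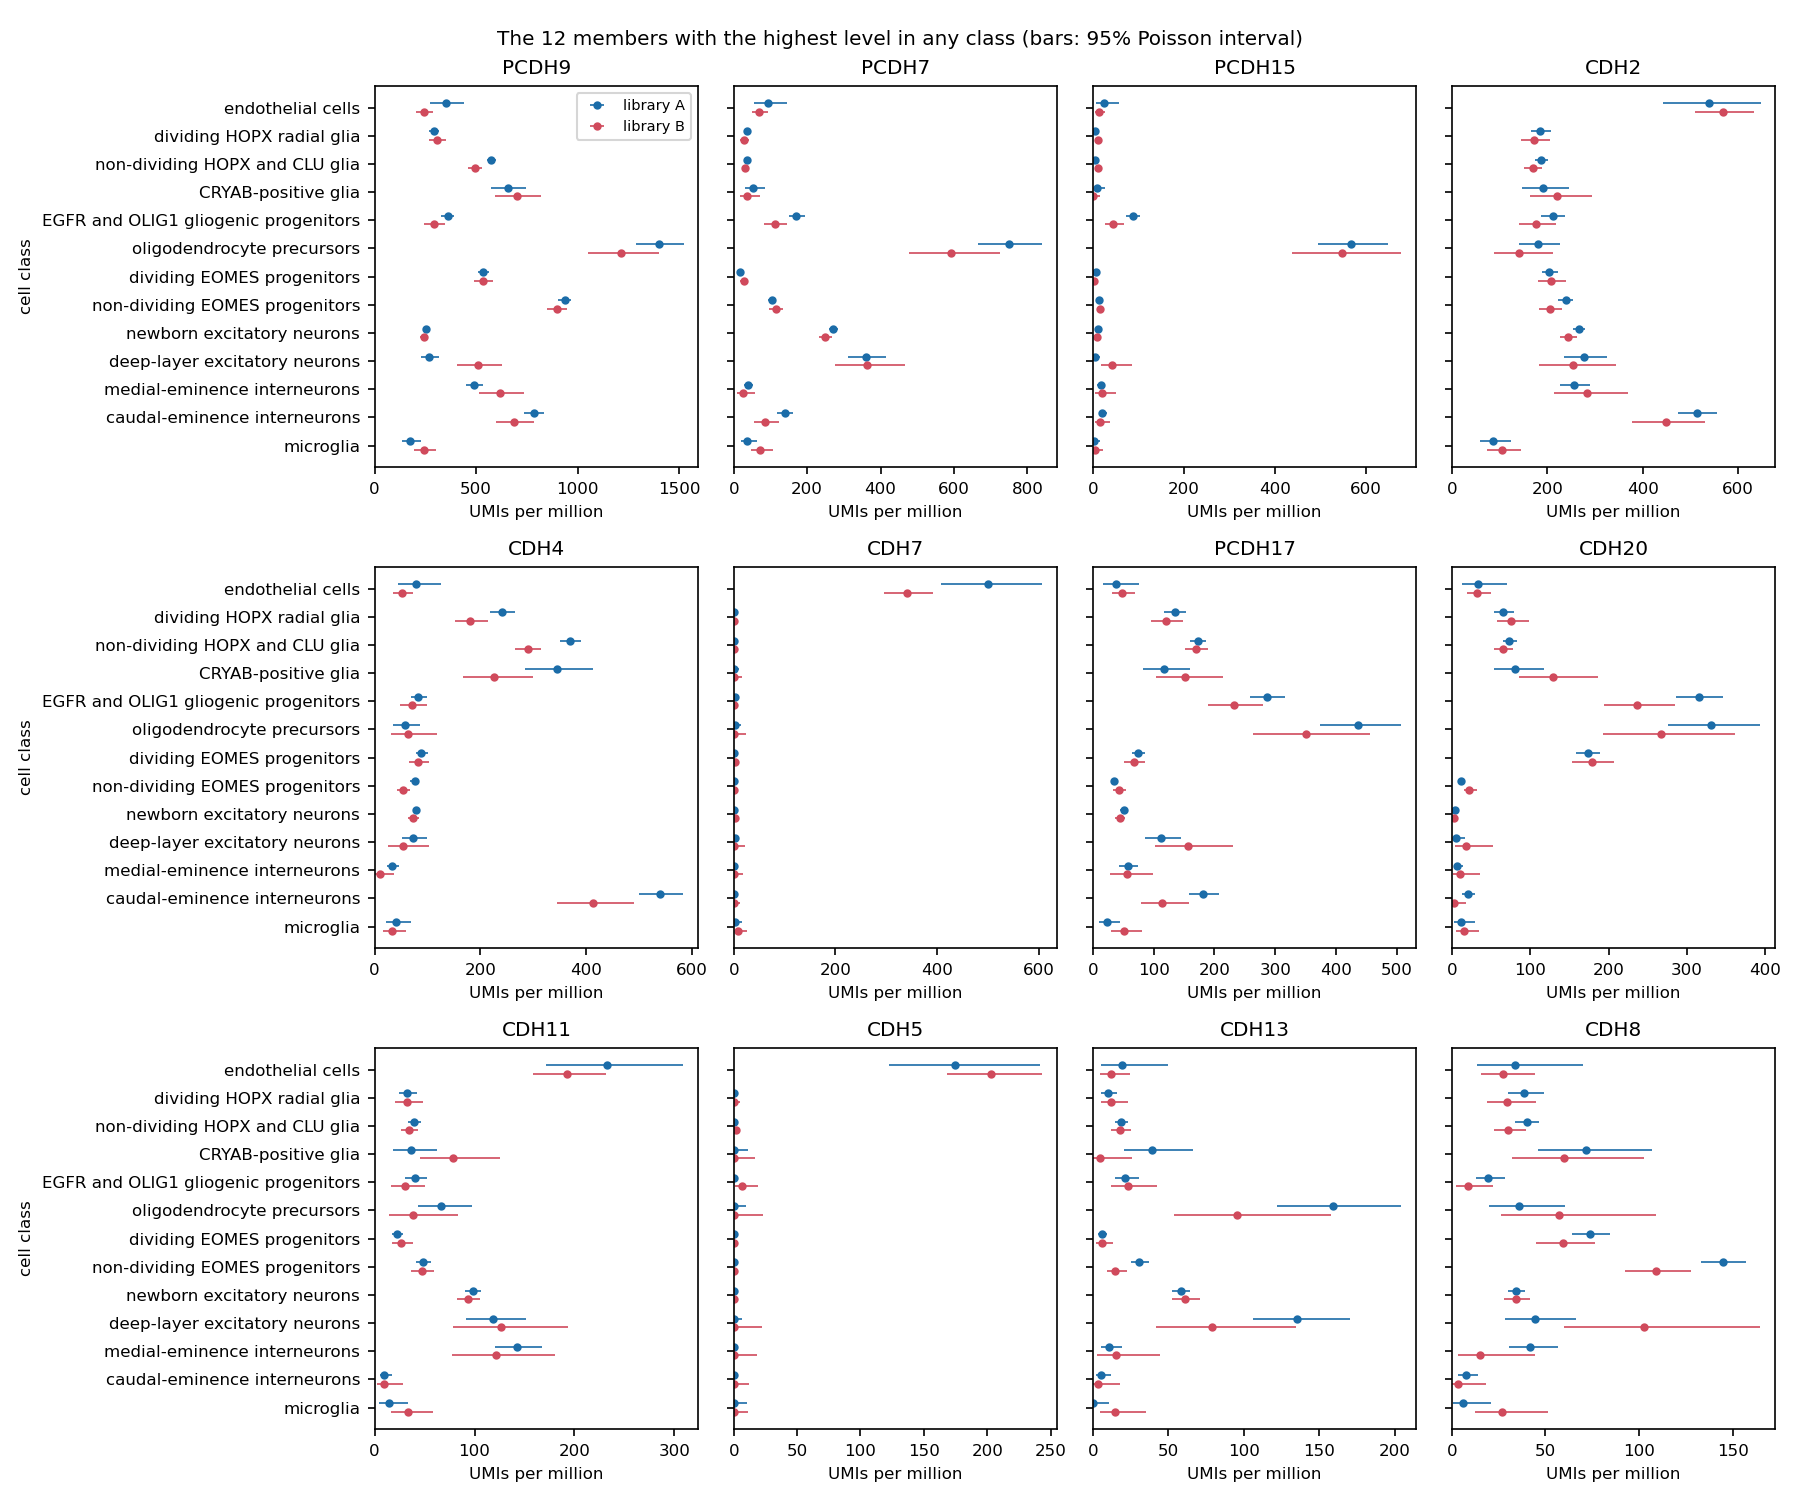
Level of the 12 members with the highest level in any class, in CPM, by class and library; points are the libraries and bars the 95% Poisson interval, which covers counting error only. The libraries lie close together in most panels, and the highest class differs between members.

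The delta-1 protocadherins held the most abundant member. PCDH9 was at 1403 and 1216 CPM in oligodendrocyte precursors, 936 and 897 CPM in non-dividing EOMES progenitors and 785 and 689 CPM in caudal-eminence interneurons, with no overlap between these. Newborn excitatory neurons, at 251 and 242 CPM, were the lowest neural class, and microglia stood at 176 and 245 CPM. PCDH7 was at 749 and 592 CPM in oligodendrocyte precursors, 361 and 363 CPM in deep-layer and 272 and 249 CPM in newborn excitatory neurons. Its lowest level was 18.1 and 27.1 CPM, in dividing EOMES progenitors. PCDH1 was low throughout, with 24.3 and 27.3 CPM in endothelial cells and 10.3 and 12.7 CPM in oligodendrocyte precursors.

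Delta-2 protocadherins bind the actin regulator complex that contains WAVE. PCDH17 was at 436 and 350.2 CPM in oligodendrocyte precursors and 286 and 232 CPM in gliogenic progenitors, with no overlap. Non-dividing glia followed at 173 and 169 CPM and caudal-eminence interneurons at 182 and 114 CPM, with overlap. PCDH10 was a glial member, at 77.0 and 134 CPM in oligodendrocyte precursors, 83.9 and 86.7 CPM in non-dividing glia and 86.8 and 73.7 CPM in CRYAB-positive glia, which overlapped. Gliogenic progenitors, at 50.3 and 57.9 CPM, lay below these in both libraries. Its lowest level was 1.56 and 2.82 CPM, in non-dividing EOMES progenitors. PCDH19, the gene of an X-linked epilepsy in humans, was at 79.1 and 55.7 CPM in medial-eminence and 32.8 and 39.0 CPM in caudal-eminence interneurons, and at 33.3 CPM or less in the other tested classes. PCDH18 was at 34.0 and 52.9 CPM in endothelial cells and at most 11.7 CPM in every other tested class.

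The clustered protocadherins were sparse. The 8 members were PCDHAC1, 6 of the PCDHB genes and PCDHGA11, and their highest class means lay between 2.94 CPM (PCDHAC1) and 16.9 CPM (PCDHB15). As a group they reached 72.9 and 42.2 CPM in caudal-eminence interneurons, 71.3 and 35.5 CPM in medial-eminence interneurons, 53.7 and 42.3 CPM in deep-layer and 42.5 and 42.8 CPM in newborn excitatory neurons, with overlap. In HOPX glia they were at 20.1 and 14.5 CPM (non-dividing) and 14.4 and 16.2 CPM (dividing). PCDHB genes are related and similar in sequence, and alpha and gamma cluster transcripts share their last exons, so single values are uncertain.

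Both remaining protocadherins fall outside the delta and clustered groups. PCDH15 was at 567 and 548 CPM in oligodendrocyte precursors and 87.6 and 45.1 CPM in gliogenic progenitors, and the other classes held 0 to 42.3 CPM. A PCDH15 UMI was seen in 86 of 101 cells (85.1%, 95% interval 76.7 to 91.4) of the precursors, against 3 of 211 cells (1.42%, 95% interval 0.294 to 4.10) of the microglia, at medians of 4921 and 2136 UMIs per cell. Thinned to 1500 UMIs the shares were 49.5% and 0.948%. Among precursors, 94.2% of the 86 cells with PCDH15 also held PCDH9. PCDH12, known in mouse and human as an endothelial protocadherin, was at 38.8 and 42.7 CPM in endothelial cells, 26.0 and 20.9 CPM in microglia and 17.6 and 10.1 CPM in medial-eminence interneurons. It was at most 2.15 CPM in the other tested classes.

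Tests were run on the UMIs summed per class and library, with 1 fit over all 26 sums. Of the 34 members, 22 passed the filter on low counts. The 12 that did not were CDH3, CDH9, CDH15, CDH22, CDH24, PCDHAC1, PCDHB2, PCDHB3, PCDHB4, PCDHB5, PCDHB8 and PCDHGA11, whose highest class means lay between 2.87 and 15.8 CPM. A member is called changed at an adjusted p below 0.05 (edgeR's quasi-likelihood test, Benjamini-Hochberg over all 11675 genes tested in a comparison), and its log2 fold change is given ± its standard error. Each of the 22 was called in at least 1 of the 10 comparisons, PCDH9 and PCDH17 in 8 each. That count is no result about the members. The filter can admit a gene through 1 class in which it is high. The share of all genes called at least once was not counted, and up to 64.5% of all genes were called in a single comparison. Values without a library are given where they move a fold change by more than 1.5 times. For some members with few UMIs on a side the UMIs of each library are given. Other levels of a few CPM rest on few UMIs too. A fold change from 1 library with 0 UMIs on a side depends on the prior count and is no bound. Comparisons that share a class share its sums.

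**Figure D4:**
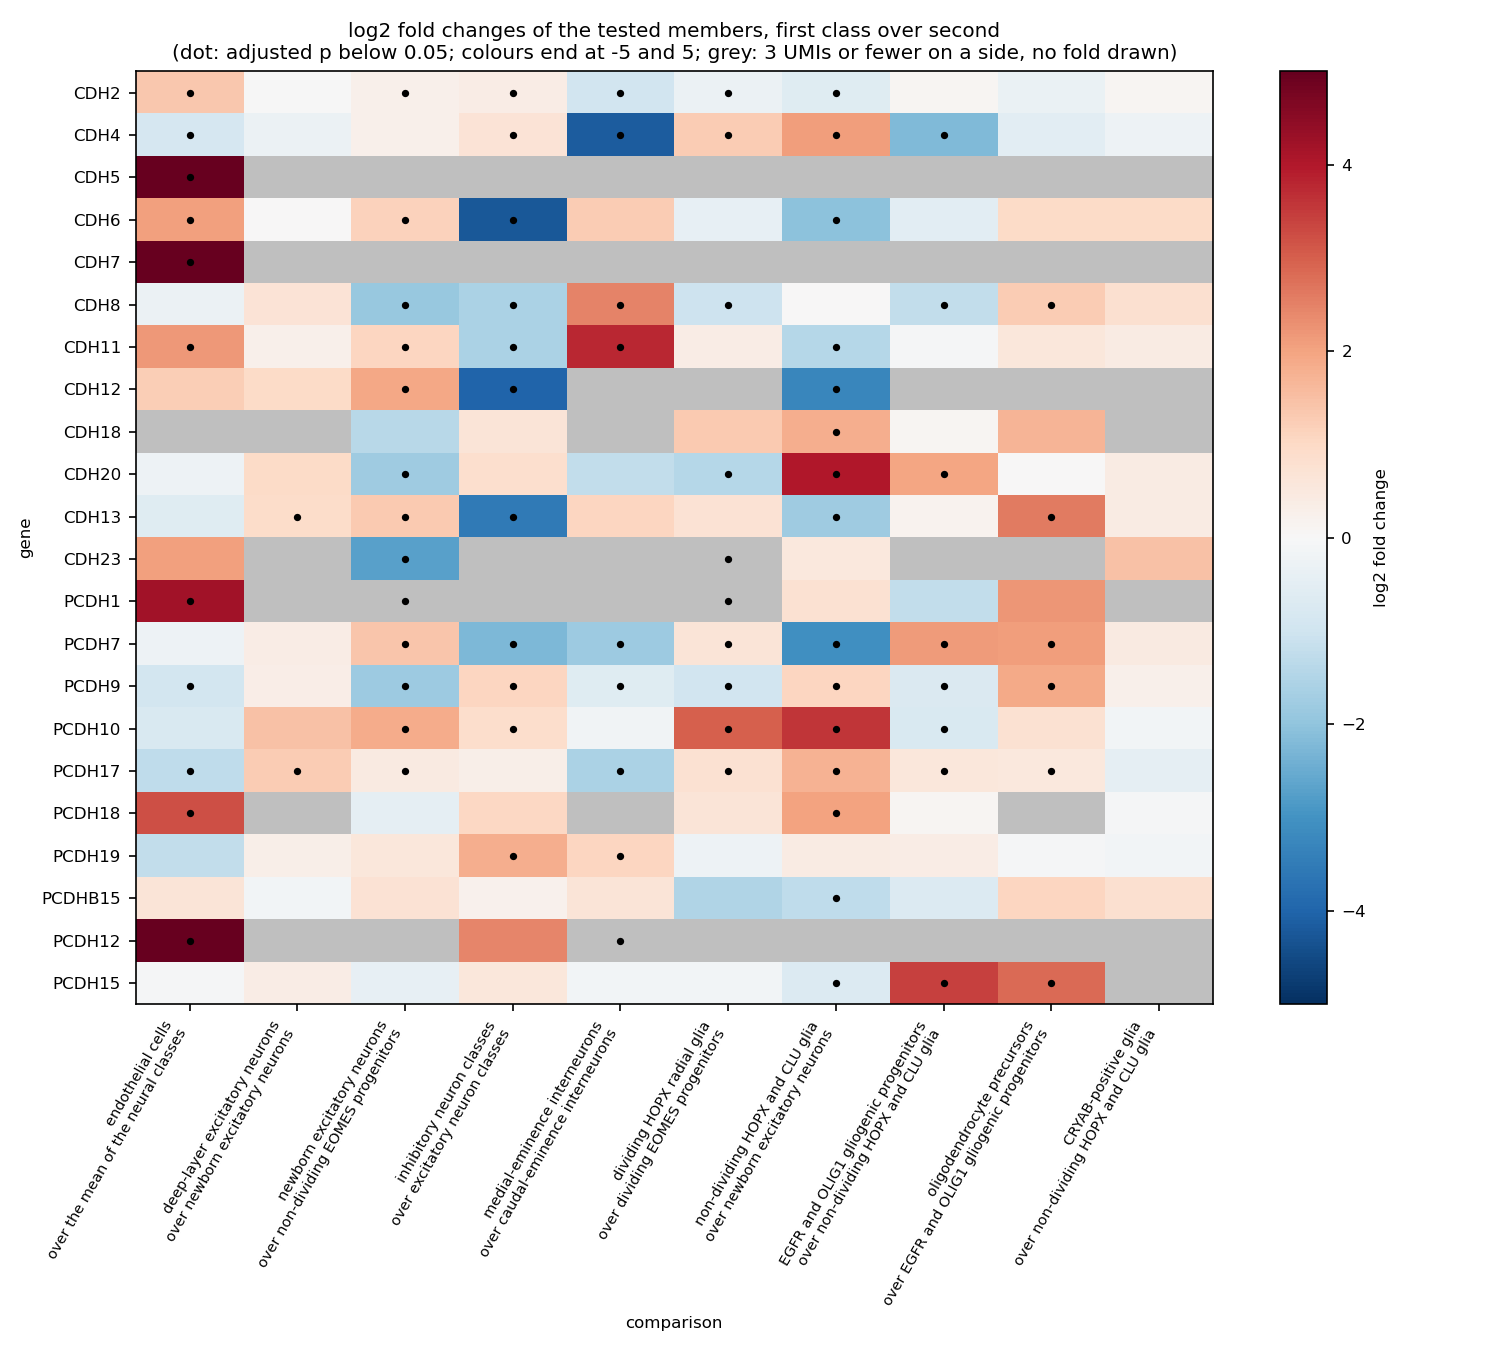
Log2 fold change of the 22 tested members (rows) in the 10 comparisons (columns, first class over second); red is higher and blue lower in the first class, dots mark adjusted p below 0.05, and grey cells have 3 UMIs or fewer on a side. The column of oligodendrocyte precursors over gliogenic progenitors has dots on red cells alone, and that of CRYAB-positive glia has none.

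Endothelial cells were set against the average of the 11 neural classes. In endothelial cells 8 members were higher and 3 lower. Among all genes 30.3% were called, 20.1% higher and 10.2% lower, and the median log2 fold change was 0.31 over the tested members and 0.04 over all genes. The junction cadherin CDH5 had 155 UMIs in endothelial cells against 8 in the pooled neural classes, a ratio of 808-fold (95% interval 400.0 to 1905), adjusted p = 1.75e-52. By library it had 36 UMIs in endothelial cells against 2 in the neural classes in A, and 119 in endothelial cells against 6 in the neural classes in B (fitted log2 fold change 10.01, 10.88 without library B and 9.52 without library A). CDH7 had 303 UMIs in endothelial cells against 26 in the neural classes, a ratio of 486-fold (95% interval 325 to 756), adjusted p = 7.40e-81 (fitted log2 fold change 9.36, 10.26 without library B and 9.73 without library A). PCDH12 was 47.5-fold (95% interval 27.9 to 81.0) higher over pooled UMIs, adjusted p = 3.69e-18. DESeq2 did not call CDH5 (adjusted p = 0.22).

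PCDH1 (log2 fold change 4.18 ± 0.62, adjusted p = 2.74e-09, 4.30 without library B and 4.85 without library A) and PCDH18 (log2 fold change 3.22 ± 0.42, adjusted p = 9.81e-12, 2.69 without library B and 4.34 without library A) were also higher in endothelial cells. So were CDH11 (log2 fold change 2.15 ± 0.16, adjusted p = 2.19e-27), CDH6 (log2 fold change 2.03 ± 0.22, adjusted p = 2.91e-15) and CDH2 (log2 fold change 1.33 ± 0.10, adjusted p = 6.47e-29). PCDH17 (log2 fold change -1.29 ± 0.23, adjusted p = 8.03e-07), PCDH9 (log2 fold change -0.91 ± 0.12, adjusted p = 7.17e-12) and CDH4 (log2 fold change -0.83 ± 0.21, adjusted p = 8.92e-04) were lower. In microglia, which lack a neural lineage too, PCDH17 was at 23.1 and 50.9 CPM, PCDH9 at 176 and 245 CPM and CDH4 at 40.4 and 32.9 CPM. Of the partner genes, 8 of the 16 tested catenins and junction proteins were higher and 1 lower. The largest were vinculin VCL (2.33 ± 0.26, 1.59 without library B, 3.90 without library A) and the p120-related PKP4 (1.80 ± 0.16), and CTNND2 was the 1 lower gene (-0.41 ± 0.09). Among 12 tested genes of the wider superfamily, FAT1 (1.48 ± 0.30, 0.65 without library B, 2.33 without library A) and FAT4 were higher.

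In the radial glia that were dividing, 5 members were higher and 5 lower than in dividing EOMES progenitors, the neuronal intermediate progenitors. The background was 15.9% of genes higher and 15.9% lower, and the medians were -0.09 over the members and -0.02 over all genes. PCDH10 was at 54.9 and 40.5 CPM in radial glia and 4.27 and 10.0 CPM in EOMES progenitors (log2 fold change 2.99 ± 0.31, adjusted p = 7.86e-17, 3.57 without library B and 1.88 without library A). CDH4 was at 240.2 and 181 CPM in dividing radial glia against 88.2 and 82.2 CPM in dividing EOMES progenitors (log2 fold change 1.26 ± 0.12, adjusted p = 9.68e-20). PCDH17 was higher as well (log2 fold change 0.75 ± 0.14, adjusted p = 1.77e-06). PCDH7 was called higher (log2 fold change 0.65 ± 0.25, adjusted p = 0.037, 0.96 without library B and -0.12 without library A), but in library B it was at 27.0 CPM in radial glia and 27.1 CPM in EOMES progenitors, and its adjusted p under the alternatives ran up to 0.759. PCDH1 had 11 UMIs in radial glia against 1 in EOMES progenitors, a ratio of 16.9-fold (95% interval 2.46 to 729), adjusted p = 0.0102. In library A 9 UMIs in radial glia stood against 0 in EOMES progenitors and in library B 2 in radial glia against 1 in EOMES progenitors, and the fitted log2 fold change was 3.56 with both libraries and 1.19 without library A.

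On the lower side, CDH20 was at 65.8 and 75.5 CPM in dividing radial glia and 174 and 178 CPM in dividing EOMES progenitors (log2 fold change -1.44 ± 0.14, adjusted p = 2.98e-19). CDH8 (log2 fold change -1.04 ± 0.19, adjusted p = 1.18e-06), PCDH9 (log2 fold change -0.95 ± 0.09, adjusted p = 8.39e-19) and CDH2 (log2 fold change -0.28 ± 0.11, adjusted p = 0.0295) were lower too. The call of CDH2 was lost with RLE scaling (adjusted p = 0.087) and with DESeq2 (0.12), and with thinned cells that of CDH8 was lost (0.103). CDH23 had 1 UMI in dividing radial glia against 23 in dividing EOMES progenitors, a ratio of 0.0670-fold (95% interval 0.00163 to 0.412), adjusted p = 0.00305. In library A 0 UMIs in radial glia stood against 19 in EOMES progenitors and in library B 1 in radial glia against 4 in EOMES progenitors, and the fitted log2 fold change was -3.66 with both libraries and -1.57 without library A. The alpha-catenins split in this comparison, with CTNNA3 (alpha-T-catenin) higher at 2.40 ± 0.11 and CTNNA2 (alpha-N-catenin, the neuronal form) lower at -1.73 ± 0.12. Vinculin was higher at 1.96 ± 0.23. In all, 5 of 16 partners were higher and 3 lower, and in the wider superfamily 2 of 12 were higher, FAT3 at 1.23 ± 0.12, and 3 lower, CELSR3 at -2.78 ± 0.60 (-3.31 without library B, -1.94 without library A) and CLSTN2 at -1.98 ± 0.35.

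Non-dividing HOPX and CLU glia and newborn excitatory neurons differed in 15 of the 22 tested members, 7 higher and 8 lower in glia. In this comparison 32.7% of all genes were called higher and 31.8% lower, 64.5% in all, which is near the share of the tested members. The medians were 0.21 over the members and -0.01 over all genes. CDH20 was at 73.5 and 65.4 CPM in glia and 4.57 and 3.13 CPM in newborn neurons (log2 fold change 4.0 ± 0.20, adjusted p = 1.34e-47). PCDH10 was at 83.9 and 86.7 CPM in glia against 7.31 and 5.57 CPM in newborn neurons (log2 fold change 3.57 ± 0.19, adjusted p = 4.19e-43), and CDH4 at 370.1 and 289 CPM in glia against 78.5 and 72.5 CPM in newborn neurons (log2 fold change 2.08 ± 0.08, adjusted p = 5.18e-61). PCDH17 (1.76 ± 0.10), PCDH9 (1.06 ± 0.07), PCDH18 (2.03 ± 0.49) and CDH18 (1.82 ± 0.62, 2.46 without library B, 0.82 without library A) were also higher in glia.

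Lower in glia were PCDH7, at 34.9 and 30.2 CPM in glia against 272 and 249 CPM in newborn neurons (log2 fold change -3.06 ± 0.11, adjusted p = 1.61e-67), and CDH12, at 2.61 and 0 CPM in glia against 17.0 and 15 CPM in newborn neurons (log2 fold change -3.24 ± 0.45, adjusted p = 5.19e-11, -2.75 without library B and -6.64 without library A). CDH6 was at 18.2 and 33.0 CPM in glia against 94.4 and 86.7 CPM in newborn neurons (log2 fold change -2.06 ± 0.14, adjusted p = 1.81e-33, -2.44 without library B and -1.46 without library A). CDH13 (-1.78 ± 0.19), CDH11 (-1.43 ± 0.12), PCDHB15 (-1.27 ± 0.37) and CDH2 (-0.59 ± 0.08) were lower, with PCDH15 at -0.70 ± 0.31 (-1.30 without library B, 0.21 without library A). For PCDH15 the libraries pointed in opposite directions, and DESeq2 gave an adjusted p of 0.474. Of the 16 partner genes, 10 were higher and 4 lower, beside the 64.5% of all genes called. PLEKHA7, which binds p120-catenin at junctions, was at 5.50 ± 0.25 (6.15 without library B, 4.44 without library A), CTNNA3 at 4.43 ± 0.09 and CTNNA2 at -3.16 ± 0.08. Of 12 wider superfamily genes 4 were higher in glia, FAT1 at 3.64 ± 0.20, and 7 lower, the calsyntenin CLSTN2 at -4.76 ± 0.18.

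EGFR and OLIG1 gliogenic progenitors had 4 of the 22 tested members higher and 4 lower than non-dividing HOPX and CLU glia. Of all genes 17.1% were called higher and 19.3% lower, 36.4% in all, which is near the share of the tested members. The medians were 0.09 over the members and -0.02 over all genes. PCDH15 was at 87.6 and 45.1 CPM in the gliogenic cells and 4.69 and 10.6 CPM in the glia (log2 fold change 3.41 ± 0.28, adjusted p = 1.99e-24, 4.15 without library B and 2.0 without library A). PCDH7 was at 171 and 112 CPM in gliogenic cells against 34.9 and 30.2 CPM in glia (log2 fold change 2.14 ± 0.16, adjusted p = 1.50e-28). CDH20 was at 315 and 236 CPM in gliogenic cells against 73.5 and 65.4 CPM in glia (log2 fold change 1.98 ± 0.12, adjusted p = 4.99e-38), and PCDH17 was higher (log2 fold change 0.58 ± 0.10, adjusted p = 3.25e-07). CDH4 was at 82.6 and 70.8 CPM in gliogenic cells and 370.1 and 289 CPM in glia (log2 fold change -2.19 ± 0.12, adjusted p = 1.73e-40). CDH8 (log2 fold change -1.21 ± 0.28, adjusted p = 1.02e-04, -1.09 without library B and -1.86 without library A), PCDH10 (log2 fold change -0.76 ± 0.19, adjusted p = 5.19e-04) and PCDH9 (log2 fold change -0.74 ± 0.09, adjusted p = 9.80e-13) were lower, PCDH10 with an adjusted p of 0.291 in thinned cells. Dividing-cell markers summed to 1753 and 1869 CPM in the gliogenic class and 42.2 and 49.8 CPM in the glia, and the part of cell division in these differences was not tested. Of the partners, 3 of 16 were higher, PKP4 at 1.11 ± 0.16, and 7 lower, PLEKHA7 at -2.26 ± 0.24 and vinculin at -2.21 ± 0.24. None of the 12 wider superfamily genes was called higher and 5 were lower, FAT3 at -2.37 ± 0.12.

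From gliogenic progenitors to oligodendrocyte precursors, 6 members were higher in the precursors and none lower by edgeR, nor by DESeq2. Over all genes 6.78% were called higher and 6.84% lower, and the medians were 0.66 over the members and -0.05 over all genes. At an unadjusted p below 0.05, 11 members passed. PCDH15 was at 567 and 548 CPM in precursors and 87.6 and 45.1 CPM in gliogenic progenitors (log2 fold change 2.82 ± 0.19, adjusted p = 2.80e-31, 2.62 without library B and 3.51 without library A). CDH13 was at 159 and 95.5 CPM in precursors against 21.5 and 23.6 CPM in gliogenic progenitors (log2 fold change 2.58 ± 0.31, adjusted p = 2.05e-12, 2.80 without library B and 1.92 without library A). PCDH7 was at 749 and 592 CPM in precursors against 171 and 112 CPM in gliogenic progenitors (log2 fold change 2.10 ± 0.13, adjusted p = 3.90e-33), and PCDH9 at 1403 and 1216 CPM in precursors against 359 and 292 CPM in gliogenic progenitors (log2 fold change 1.90 ± 0.11, adjusted p = 3.24e-38).

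PCDH17 was higher by less (log2 fold change 0.52 ± 0.14, adjusted p = 0.00274), and not called with thinned cells (adjusted p = 0.105). CDH8 had 23 UMIs in precursors and 31 in gliogenic progenitors (log2 fold change 1.26 ± 0.44, adjusted p = 0.0391, 0.81 without library B and 2.63 without library A), and without the library term its adjusted p was 0.0595, with no low-count filter 0.0809 and with thinned cells 0.308. CDH20, at 331 and 267 CPM in precursors and 315 and 236 CPM in gliogenic progenitors, had a log2 fold change of 0.01 ± 0.15 and was not called. Both steps, from glia to gliogenic progenitors and on to precursors, use the same gliogenic cells. Among partners CTNNA2 was higher (1.63 ± 0.13) and CTNNA1, the widespread alpha-E-catenin, lower (-2.16 ± 0.37), in counts of 2 higher and 4 lower of 16. The wider superfamily had 3 of 12 higher, CELSR3 at 2.97 ± 0.82 (2.06 without library B, 7.49 without library A), and 4 lower, CELSR1 at -3.56 ± 0.96 (-3.06 without library B, -7.15 without library A).

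CRYAB-positive glia, gated by 1 or more UMIs of CRYAB among HOPX and CLU glia, were set against CRYAB-negative glia. None of the 22 tested members passed the threshold by edgeR or DESeq2, 5 had an unadjusted p below 0.05, and 1.04% of all genes were called higher and 2.05% in either direction. PCDH9 was at 656 and 701 CPM in CRYAB-positive and 576 and 494 CPM in CRYAB-negative glia (0.24 ± 0.11 on the log2 scale), and CDH4 at 344 and 226 CPM in CRYAB-positive glia against 370.1 and 289 CPM in CRYAB-negative glia (-0.26 ± 0.13). In the partner list CTNNA2 (1.69 ± 0.16) and ARVCF (1.18 ± 0.29) were higher and CTNNA3 (-0.65 ± 0.11) lower.

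Newborn excitatory neurons had 9 members higher and 4 lower than non-dividing EOMES progenitors. Of all genes 12.8% were called higher and 13.3% lower, and the medians were 0.64 over the members and 0.01 over all genes. PCDH9 was at 251 and 242 CPM in newborn neurons and 936 and 897 CPM in EOMES progenitors (log2 fold change -1.83 ± 0.07, adjusted p = 5.02e-61). CDH8 was at 34.2 and 34.5 CPM in newborn neurons against 145 and 109 CPM in EOMES progenitors (log2 fold change -1.89 ± 0.11, adjusted p = 1.83e-36). CDH23 (log2 fold change -2.71 ± 0.47, adjusted p = 4.83e-07, -2.98 without library B and -2.12 without library A) and CDH20 (log2 fold change -1.76 ± 0.30, adjusted p = 2.03e-07, -1.31 without library B and -2.72 without library A) were the other members lower in newborn neurons.

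PCDH7 was at 272 and 249 CPM in newborn neurons and 103 and 114 CPM in EOMES progenitors (log2 fold change 1.38 ± 0.09, adjusted p = 9.53e-34). CDH12 was at 17.0 and 15 CPM in newborn neurons against 4.16 and 4.93 CPM in EOMES progenitors (log2 fold change 1.95 ± 0.39, adjusted p = 1.06e-05), and PCDH10 at 7.31 and 5.57 CPM in newborn neurons against 1.56 and 2.82 CPM in EOMES progenitors (log2 fold change 1.84 ± 0.45, adjusted p = 4.21e-04, 2.24 without library B and 1.01 without library A). PCDH1 had 26 UMIs in newborn neurons against 1 in EOMES progenitors, a ratio of 14.5-fold (95% interval 2.38 to 595), adjusted p = 0.00494. In library A 19 UMIs in newborn neurons stood against 0 in EOMES progenitors and in library B 7 in newborn neurons against 1 in EOMES progenitors, and the fitted log2 fold change was 3.37 with both libraries and 1.65 without library A. CDH13 (1.29 ± 0.18, 0.98 without library B, 2.10 without library A), CDH6 (1.14 ± 0.12), CDH11 (1.07 ± 0.11), PCDH17 (0.45 ± 0.14) and CDH2 (0.25 ± 0.08) were also higher. PCDH17 was not called by DESeq2 (adjusted p = 0.212) and turned to -0.05 with thinned cells (adjusted p = 0.919), PCDH10 was not called with thinned cells (0.121), and CDH2 not without the library term (0.125). Partner genes were called in both directions, 5 of 16 higher, PKP4 at 1.02 ± 0.18, and 4 lower, PLEKHA7 at -2.29 ± 0.40 and CTNNA1 at -1.66 ± 0.15. The wider superfamily had 5 of 12 higher, CDHR1 at 1.78 ± 0.16 and CLSTN2 at 1.11 ± 0.10, and 2 lower, CELSR1 at -2.42 ± 0.26.

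Deep-layer excitatory neurons differed from newborn ones in 2 members, both higher, where 0.857% of all genes were called higher and 1.46% in either direction. PCDH17 was at 113 and 157 CPM in deep-layer and 50.5 and 44.2 CPM in newborn neurons (log2 fold change 1.27 ± 0.21, adjusted p = 2.94e-06). CDH13 was at 135 and 78.6 CPM in deep-layer neurons against 58.3 and 61.0 CPM in newborn neurons (log2 fold change 0.90 ± 0.22, adjusted p = 0.00787, 1.16 without library B and 0.23 without library A), with an adjusted p of 0.593 by DESeq2. No member was called lower by edgeR or DESeq2, and 7 had an unadjusted p below 0.05 in either direction. CDH12 and PCDH7 stood higher in deep-layer cells in both libraries without passing the test (0.96 ± 0.44 and 0.36 ± 0.12). With thinned cells neither PCDH17 (adjusted p = 0.203) nor CDH13 (0.28) was called. FAT4 (1.08 ± 0.29) was the 1 gene called in the wider superfamily, and no catenin was called, with a median of 0.10 over 16 genes.

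Inhibitory neurons of the medial and caudal eminences, averaged as classes, had 5 members higher and 6 lower than the average of newborn and deep-layer excitatory neurons. Over all genes 9.64% were called higher and 12.6% lower, and the medians were 0.33 over the members and -0.01 over all genes. Pooled over the cells of each side, CDH6 was at 5.79 and 3.96 CPM in inhibitory and 95.4 and 86.0 CPM in excitatory neurons (log2 fold change -4.22 ± 0.28, adjusted p = 5.56e-32, -4.19 without library B and -6.00 without library A). CDH13 was at 8.02 and 7.92 CPM in inhibitory neurons against 64.1 and 61.9 CPM in excitatory neurons (log2 fold change -3.52 ± 0.27, adjusted p = 3.57e-26). CDH12 was at 2.23 and 0 CPM in inhibitory neurons against 18.3 and 16.1 CPM in excitatory neurons (log2 fold change -4.00 ± 0.58, adjusted p = 1.24e-09, -3.73 without library B and -7.21 without library A), and PCDH7 at 93.6 and 61.3 CPM in inhibitory neurons against 278 and 256 CPM in excitatory neurons (log2 fold change -2.24 ± 0.12, adjusted p = 6.47e-41).

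PCDH19 was at 53.9 and 45.5 CPM in inhibitory and 9.70 and 17.5 CPM in excitatory neurons (log2 fold change 1.82 ± 0.27, adjusted p = 4.33e-09, 1.86 without library B and 4.68 without library A), and PCDH9 at 651 and 661 CPM in inhibitory neurons against 252 and 257 CPM in excitatory neurons (log2 fold change 1.08 ± 0.08, adjusted p = 4.31e-27). CDH2 (0.38 ± 0.09) and PCDH10 (0.89 ± 0.30) were higher, PCDH10 with an adjusted p of 0.131 under the stricter gate and 0.213 with thinned cells. This average joins interneuron classes that differ from each other. CDH2 was at 257 and 284 CPM in medial-eminence and 514 and 448 CPM in caudal-eminence cells, and the medial-eminence values overlapped those of newborn excitatory neurons (267 and 244 CPM). CDH11 (-1.60 ± 0.19) and CDH8 (-1.58 ± 0.27, -1.20 without library B, -3.09 without library A) were called lower, yet CDH11 in medial-eminence cells stood above newborn excitatory neurons in both libraries. CDH4 was called higher (0.68 ± 0.18, 0.78 without library B, 0.00 without library A), yet its medial-eminence level was under that of newborn neurons, and in library B alone the averaged difference was near 0. With thinned cells CDH4 was not called (adjusted p = 0.212). Of the partners 4 of 16 were higher, NECTIN3 at 2.33 ± 0.20, and 6 lower, vinculin at -2.02 ± 0.54 (-1.93 without library B, -5.52 without library A). In the wider superfamily 0 of 12 were called higher and 5 lower, with CDHR1 at -4.79 ± 0.34 (-4.63 without library B, -6.89 without library A) and CLSTN2 at -3.78 ± 0.22 (-3.73 without library B, -6.01 without library A).

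Between the interneuron classes themselves, 4 members were higher and 5 lower in medial- than in caudal-eminence cells, where 5.13% and 5.61% of all genes were called. The median was 0.34 over the members and near 0 over all genes. CDH4 was at 33.2 and 10.1 CPM in medial- and 540.0 and 413 CPM in caudal-eminence interneurons (log2 fold change -4.16 ± 0.18, adjusted p = 6.83e-53, -4.05 without library B and -5.40 without library A). CDH11 had the opposite pattern, at 143 and 122 CPM in medial-eminence against 9.83 and 9.74 CPM in caudal-eminence cells (log2 fold change 3.77 ± 0.30, adjusted p = 7.86e-25). PCDH7 was at 39.1 and 25.3 CPM in medial-eminence against 139 and 84.5 CPM in caudal-eminence cells (log2 fold change -1.83 ± 0.24, adjusted p = 6.59e-11), and PCDH17 at 57.6 and 55.7 CPM in medial-eminence against 182 and 114 CPM in caudal-eminence cells (log2 fold change -1.58 ± 0.20, adjusted p = 1.63e-11). CDH2 (-0.96 ± 0.12) and PCDH9 (-0.59 ± 0.10) were lower too, PCDH9 with an adjusted p of 0.146 by DESeq2.

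Higher in medial-eminence cells were CDH8, at 42.0 and 15.2 CPM in medial-eminence against 7.37 and 3.25 CPM in caudal-eminence cells (log2 fold change 2.46 ± 0.47, adjusted p = 1.04e-05), and PCDH19, at 79.1 and 55.7 CPM in medial-eminence against 32.8 and 39.0 CPM in caudal-eminence cells (log2 fold change 1.09 ± 0.30, adjusted p = 0.0057, 1.24 without library B and 0.44 without library A). DESeq2 did not call PCDH19 (adjusted p = 0.52). PCDH12 had 20 UMIs in medial-eminence interneurons (18 in library A and 2 in library B) and 0 in caudal-eminence interneurons, at least 8.34-fold higher against a floor of 3 UMIs over the caudal-eminence class (adjusted p = 2.59e-04). These came from 20 of 375 cells, with 1 UMI in each. None of the 20 held CLDN5, but it was seen in only 1 of the 375 cells, so its absence carries no information. The source of this PCDH12 RNA was not tested. Of the 16 partner genes, 0 were called higher and 1 lower, beside 10.7% of all genes called in either direction, with CTNNA2 at -0.23 ± 0.08. FAT1 (3.70 ± 1.06, 3.29 without library B, 6.51 without library A) and CLSTN1 were higher, and FAT4 (-1.71 ± 0.32, -1.96 without library B, -0.89 without library A) and FJX1 (-1.01 ± 0.25) lower, in the wider superfamily.

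A further 4 classes had too few cells for a test. Perivascular mural and fibroblast cells (18 and 8 cells) carried PCDH18 at 383 and 191 CPM, from 26 UMIs, against 34.0 and 52.9 CPM in endothelial cells, a pooled ratio of 7.16-fold (95% interval 4.17 to 12.1). Their CDH2 was at 50.0 and 254 CPM, against 538 and 568 CPM in endothelial cells, a pooled ratio of 0.165-fold (95% interval 0.0659 to 0.343). CDH6 and CDH11 were at 250.1 and 63.6 CPM and 267 and 127 CPM there. MEIS2 inhibitory neurons (27 and 10 cells) had CDH4 at 87.0 and 0 CPM, against 309 and 255 CPM in the pooled medial- and caudal-eminence interneurons, a ratio of 0.215-fold (95% interval 0.0786 to 0.470). That pool joins unlike classes. CDH4 was at 540.0 and 413 CPM in caudal-eminence cells and at 21.7 CPM (mean of both libraries) in medial-eminence cells. The ratio therefore does not place MEIS2 cells below medial-eminence cells. CDH6 of the MEIS2 cells rested on 4 UMIs. In ependymal cells (1 and 14 cells) CDH20 was at 272 and 78.4 CPM and PCDH10 at 272 and 98.1 CPM, and in 14 erythroid cells all members together were at 275 and 234 CPM. Intervals of these ratios cover counting error only, and no p-value is given.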

How the data were processed

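Single-cell RNA-seq was measured in 2 replicate samples of 1 group. The deposited file is 1 matrix of UMI counts for all cells together. The authors ran Cell Ranger, per the submitters' processing notes, and neither its version nor a genome build is named in the sources used here. The deposited counts held 41836475 UMIs in library A and 18907140 in library B, and no cell had fewer than 1501. Symbols are those of the file, and all 34 members were found in a RefSeq table of ferret genes, which was used for names alone. No sequences or coordinates were used here.

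Cells entered a class when the UMIs of its marker list reached a minimum (for example 4 UMIs from 2 distinct markers for endothelial cells). Cells with markers of 2 lineages were left out, and no doublet caller was run. The gate minimums were settled after marker levels and member levels had been seen. The members and gene lists, too, were chosen with earlier results of these data known.

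Counts were summed per class and library and fitted with edgeR 4.0.16 (R 4.3.3) by glmQLFit and glmQLFTest, with TMM scaling, the filterByExpr filter and terms for class and library, over 26 sums. The library is a term because each library contributed a sum to every tested class. The 112 class markers were left out of the adjustment. P-values were adjusted by Benjamini-Hochberg over 11675 genes, and a member is called at an adjusted p below 0.05. Called members with an absolute log2 fold change of at least 1 and the same sign in both libraries, at most 8 per comparison, are given in full, and other called members mostly by their fold change. Up to 2 partner genes in each direction are named per comparison, by size. The standard error is the fold change divided by the square root of F. Ratios of pooled UMIs have exact Poisson-based intervals and shares have Clopper-Pearson intervals, at 95%, which cover counting error only. Alternatives were RLE scaling, no filter, no library term, cells thinned to 1500 UMIs, gates raised by 1 UMI, cells of 2 lineages kept, a fit of the compared classes alone, DESeq2 1.42.0, and each library left out. The fitting step was also run on sums simulated from its own fitted model, for 2 comparisons. Such a run cannot show whether that model suits these libraries.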

Additional observations from a re-analysis of the deposited data

How the results depend on the processing

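Of 85 called member results over the 10 comparisons, 83 stayed called with RLE scaling, 83 with no low-count filter, 82 with the stricter gate, 82 with cells of 2 lineages kept, 80 in fits of the compared classes alone (4 more were not tested there), 77 by DESeq2 and 56 with cells thinned to 1500 UMIs, where 16 were not tested and 13 were lost. Thinning leaves fewer UMIs in every sum. Under it PCDH17 in newborn neurons over EOMES progenitors changed sign, the 1 sign change among these alternatives. Without the replicate block, that is the library term, 79 stayed called. The 6 lost were CDH2 and PCDH17 in newborn neurons over EOMES progenitors, CDH2 and PCDH7 in dividing radial glia, PCDH15 in glia over newborn neurons, and CDH8 in oligodendrocyte precursors. Members called in deep-layer over newborn neurons, 2 in the main analysis, numbered 0 with thinned cells and 1 each under the stricter gate, with cells of 2 lineages kept and by DESeq2. In dividing radial glia over dividing EOMES progenitors 5 members were called with thinned cells and 10 in the main analysis. The cause was not tested.

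With thinned cells the genes called numbered 2067 against 3535 in the main analysis for endothelial cells, 24 against 170 for deep-layer neurons (73 with no library term, 99 by DESeq2), 1657 against 3040 for newborn neurons (1870 by DESeq2), 1419 against 2599 for inhibitory neurons, 834 against 1254 between interneuron classes, 1339 against 3714 for dividing radial glia, 4445 against 7531 for glia, 2048 against 4250 for gliogenic progenitors, 573 against 1590 for precursors and 65 against 239 for CRYAB-positive glia (130 by DESeq2). The leading class of a member was the same for 31 of 34 without library A and 26 without library B. With 1 library left the fits have no residual degrees of freedom, so those fold changes carry no test. Mural over endothelial cells and MEIS2 over other inhibitory neurons had fewer than 20 cells in a library and were not fitted, so their alternatives were not run. Scarce members are limited by depth: the 12 that did not pass the filter cannot be read as absent.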
